A study of Mus musculus with 2 samples.

Results

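The subject is 8 transcription factor genes of the myeloid lineage, namely Cebpa, Cebpb, Cebpd, Cebpe, Gfi1, Spi1, Irf8 and Klf4. They were selected by gene symbol alone, and all 8 were found among the 28523 genes listed for all cells and among the 21544 genes listed for neutrophils. The cells came from liver metastases of 4T1, a mouse triple-negative breast cancer line, in female BALB/c mice aged 6 to 8 weeks, dissected 14 days after injection of 250000 cells into the spleen, which was removed shortly afterwards. The injected cells carried either a non-targeting scrambled hairpin (group shSCR) or one that silences the palmitoyltransferase gene Zdhhc17 (group shZdhhc17), both delivered by a lentiviral vector with puromycin selection. The host cells, neutrophils included, carried no hairpin. Cells of 3 mice were pooled into 1 BD Rhapsody library per group, so no spread between mice can be given and no test between the groups was possible.

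These factors divide the work of making granulocytes, monocytes and dendritic cells from a shared progenitor. C/EBP alpha, encoded by Cebpa, and PU.1, encoded by Spi1, act early, and the balance between them is known to steer progenitors toward granulocytes or monocytes. Gfi1 encodes a repressor needed for neutrophil formation, and Cebpe encodes the factor needed for specific granules and terminal neutrophil maturation. Irf8 and Klf4 are known for monocyte development, and Irf8 also for dendritic cells. Cebpb drives granulocyte production under stress, and Cebpd is an acute-phase relative induced in inflammation.

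What could be read about the 8 genes was limited to the authors' gene tables and neutrophil marker table. These give a gene's presence, its flag as one of the 1000 most variable genes, and, for the 20 listed markers of each of 9 neutrophil clusters, a fold change and detection values. Levels of the 8 genes by library, in monocytes, in dendritic cells or in the cells annotated as MDSCs (myeloid-derived suppressor cells) were not analysed here. The libraries held 22860 cells (shSCR) and 21511 cells (shZdhhc17), with medians of 7105 and 6732 UMIs (molecule counts) per cell. Of the cell identifiers, 609 occurred in both libraries, 2.66% of those of shSCR and 2.83% of those of shZdhhc17.

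On the GRCm38 build, in the GENCODE M21 annotation, the 8 protein-coding genes lie on 7 chromosomes. Cebpa spans 35119293 to 35121928 on chromosome 7, and Cebpb spans 167688915 to 167690418 on chromosome 2. Cebpd spans 15887286 to 15891031 on chromosome 16, and Cebpe spans 54710360 to 54712174 on chromosome 14. These 4 C/EBP genes are compact, from 1504 to 3746 bases long, with transcripts of 1 or 2 exons. Gfi1 spans 107716657 to 107726036 on chromosome 5, Klf4 spans 55527143 to 55532466 on chromosome 4, Irf8 spans 120736358 to 120756694 on chromosome 8, and Spi1 spans 91082390 to 91115756 on chromosome 2. Spi1 is the longest at 33367 bases. Cebpe, Gfi1 and Klf4 are on the minus strand and the other 5 on the plus strand.

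Genes on the opposite strand overlap 4 of the 8, which matters because the sources used here do not say whether counting used strand. Gm45091 overlaps 313 bases of Cebpa, Tmem189 overlaps 908 bases of Cebpb, Spidr overlaps 1808 bases of Cebpd, and A430072P03Rik overlaps 880 bases of Gfi1. All 4 of these partners were themselves listed in the gene table of all cells. Irf8 lies within Gm20388, a read-through gene model on the same strand, which was not in that table. Cebpe, Spi1 and Klf4 overlap no other gene of the annotation, so the marker values of Cebpe below carry no such doubt.

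RefSeq promoters (GRCm38.p6), from 250 bases before to 50 after a start, were matched by symbol for 5 of the 8 genes, with 7 starts in all. Cebpa, Cebpb and Klf4 had 1 start each, and Gfi1 and Irf8 had 2. Cebpd, Cebpe and Spi1 had no entry. Motifs for the factors of the group were searched on both strands. The palindrome TTGCGCAA of C/EBP, GAGGAAGT of PU.1 and GAAANNGAA of the IRF family matched none of the 7 promoters, against 0.183%, 3.20% and 8.56% of all 32851 promoters. TTGCNNAA, the relaxed C/EBP form that includes the palindrome, matched 1 of 7 (Gfi1), against 10.8% of all. AATCNNNGC of GFI1 matched 1 of 7 (Irf8), against 10.3% of all. CACCC, a KLF core, matched 3 of 7 (Cebpa, Cebpb and the same Gfi1 start), against 57.5% of all.

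The 2 promoters below are shown because each holds a longer motif of another gene of the group. Each line gives the 250 bases before the start, 5′ to 3′ on the strand of the gene, with the match in capitals. The Gfi1 match covers positions -143 to -136, counted back from -1 at the base before the start, on the strand of the gene. The Irf8 match covers positions -127 to -119, on the other strand. With 7 promoters, 1 match each is near the share of all promoters. No binding or chromatin data were analysed here, so a match describes letters only.
Gfi1, chr5:107725806-107726055, minus strand: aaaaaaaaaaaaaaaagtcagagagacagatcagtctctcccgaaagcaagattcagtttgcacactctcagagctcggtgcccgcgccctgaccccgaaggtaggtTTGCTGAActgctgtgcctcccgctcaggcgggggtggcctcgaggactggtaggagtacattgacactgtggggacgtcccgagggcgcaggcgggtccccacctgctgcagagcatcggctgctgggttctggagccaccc
Irf8, chr8:120736108-120736357, plus strand: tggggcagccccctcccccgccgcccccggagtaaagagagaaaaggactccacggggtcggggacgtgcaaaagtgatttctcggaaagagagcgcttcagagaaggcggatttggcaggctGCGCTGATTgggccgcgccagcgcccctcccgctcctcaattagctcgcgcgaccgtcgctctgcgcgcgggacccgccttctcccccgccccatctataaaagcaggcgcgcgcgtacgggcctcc

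The first question was whether the lineage factors were among the genes that varied most from cell to cell. None of the 8 was among the 1000 most variable genes of all cells, where such genes made up 3.51% of the table. None was among the 1000 most variable genes of neutrophils either, where they made up 4.64%. At those shares a list of 8 genes would often hold none, so the count of 0 does not set the group apart from other genes. None of the 8 was flagged as a cell cycle, ribosomal or mitochondrial gene. That matters because no gene with any of those flags was counted as variable in either table (0 of 94 cell cycle genes in both).

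The other lists of transcription factors differed in how many of their genes were flagged. Of 65 other myeloid factors, 17 were among the most variable genes of all cells, and of the 60 listed for neutrophils, 24 were. They included relatives of the 8 genes. Irf4, Klf2 and Spib (a relative of Spi1) were flagged in all cells, and Irf1, Klf2 and Klf6 in neutrophils. Irf5, Irf7, Klf3, Klf13, the C/EBP relatives Cebpg and Cebpz and the Gfi1 relative Gfi1b were flagged in neither table. Spic was not flagged in all cells and was not listed for neutrophils. Of the 65, 10 were flagged in both tables and 31 in at least 1. Those flagged in both were Egr1, Egr3, Nr4a1, Klf2, Zeb2, Etv6, Fos, Fosb, Jun and Nfkb1. Of the lymphoid factors, 11 of 16 were flagged in all cells, such as Pax5, Ebf1 and Tcf7, and 0 of 10 in neutrophils. Erythroid and megakaryocyte factors had 1 of 8 in all cells (Gata2) and 0 of 8 in neutrophils, and liver and epithelial factors had 0 of 16 and 0 of 4.

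Genes that these factors are known to control were counted in the same way. Of the fixed list of azurophil granule genes, several of which Cebpa and Spi1 help to switch on, 7 of 11 were variable in all cells. In neutrophils 6 of 11 were, with Mpo, Elane, Prtn3 and Ctsg in both. That list also holds Ms4a3, Clec12a and Hk3, which are not known as genes of granule proteins. They stay in its counts, and of these Ms4a3 was flagged in both tables and the others in neither. Of the specific and gelatinase granule genes, several of which depend on Cebpe, 12 of 17 were variable in all cells and 9 of 17 in neutrophils, with Ltf, Camp, Ngp and Lcn2 in both. The specific and gelatinase list also holds Adpgk and Padi4, which are not known as genes of granule proteins. Both stay in its counts, and neither was flagged as variable. Of the monocyte and macrophage genes, 5 of 13 were variable in all cells (Ccr2, Cd14, Lyz2, F13a1 and C1qa), and 3 of 9 in neutrophils (Cd14, Lyz2 and F13a1). Of the dendritic cell genes, 7 of 14 were variable in all cells, among them Xcr1 and Clec9a, markers of the conventional dendritic cells that need Irf8, and 0 of 12 in neutrophils. These are counts of genes in a list, and the difference between lists was not tested.

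**Figure D1:**
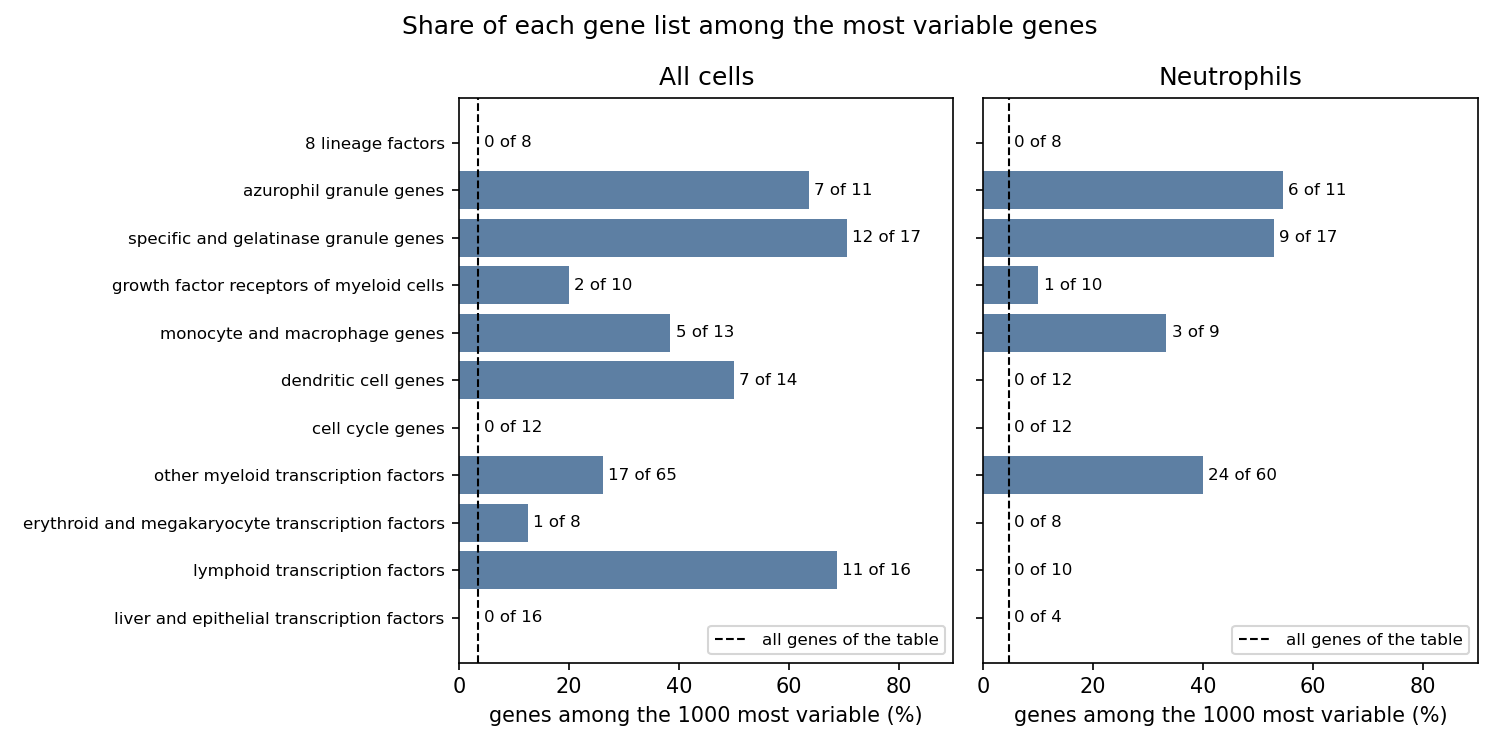
Percent of each gene list among the 1000 most variable genes of all cells (left) and of neutrophils (right), with the number of flagged over listed genes beside each bar and the share over all genes of the table as a dashed line. The 8 lineage factors have 0 in both, as do the cell cycle genes and the liver and epithelial factors. The granule gene lists lie between 52.9% and 70.6%.

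Cebpe was the 1 gene of the 8 in the neutrophil marker table, where it was listed for the Early-Stage 2 cluster. Of all genes listed for neutrophils, 0.835% were markers of any cluster and 0.0928% were markers of Early-Stage 2. The remaining 7 factors were listed for no cluster. In the authors' deposited table, Cebpe had a log2 fold change of 1.31 in Early-Stage 2 against all other neutrophils, on depth-scaled log2 values with a pseudocount of 1. It was detected in 93.9% of the cells of this cluster and, by its specificity score, in 18.7% of the other neutrophils. It held rank 20, the last place listed, with a marker score of 1.12 (the fold change multiplied by a specificity of 0.852). The cluster and its markers come from the same cells, so these values describe the cluster and test nothing.

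Among the 20 Early-Stage 2 markers, Cebpe had the smallest log2 fold change but not the least specific detection. The cluster was led in the authors' deposited table by Fcnb, which encodes ficolin B of neutrophil precursors (log2 fold change 2.33, detected in 97.9% of the cluster and 19.2% of other neutrophils). Cebpe was detected outside the cluster about as often as Fcnb, and 8 of the 20 markers were detected there in fewer cells than Cebpe. The authors flagged 8 of the 20 as cell cycle genes. Separately, 6 of the 12 genes of the fixed cell cycle list were among the 20 markers (Mki67, Top2a, Pcna, Ccna2, Mcm5 and Rrm2), whether or not they carried that flag. None of the 20 was among the 1000 most variable genes of neutrophils, the genes the authors used to lay out these cells. By comparison, all 20 markers of Hypoxia/Angiogenesis, 16 of Inflammation, 12 of Early-Stage 1, 8 of NETosis 1 and 7 of ECM Remodeling were. Migration 1 and Migration 2 had 5 each, and NETosis 2 had 1, close to the 0 of Early-Stage 2. Since no cell cycle gene was counted as variable, the 8 flagged markers of Early-Stage 2 could not be among them. Of the other clusters only NETosis 2 held flagged markers, namely 2. Of the 12 Early-Stage 2 markers without that flag, Cebpe included, 0 were variable. A marker without the flag can still be a gene of the cell cycle.

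**Figure D2:**
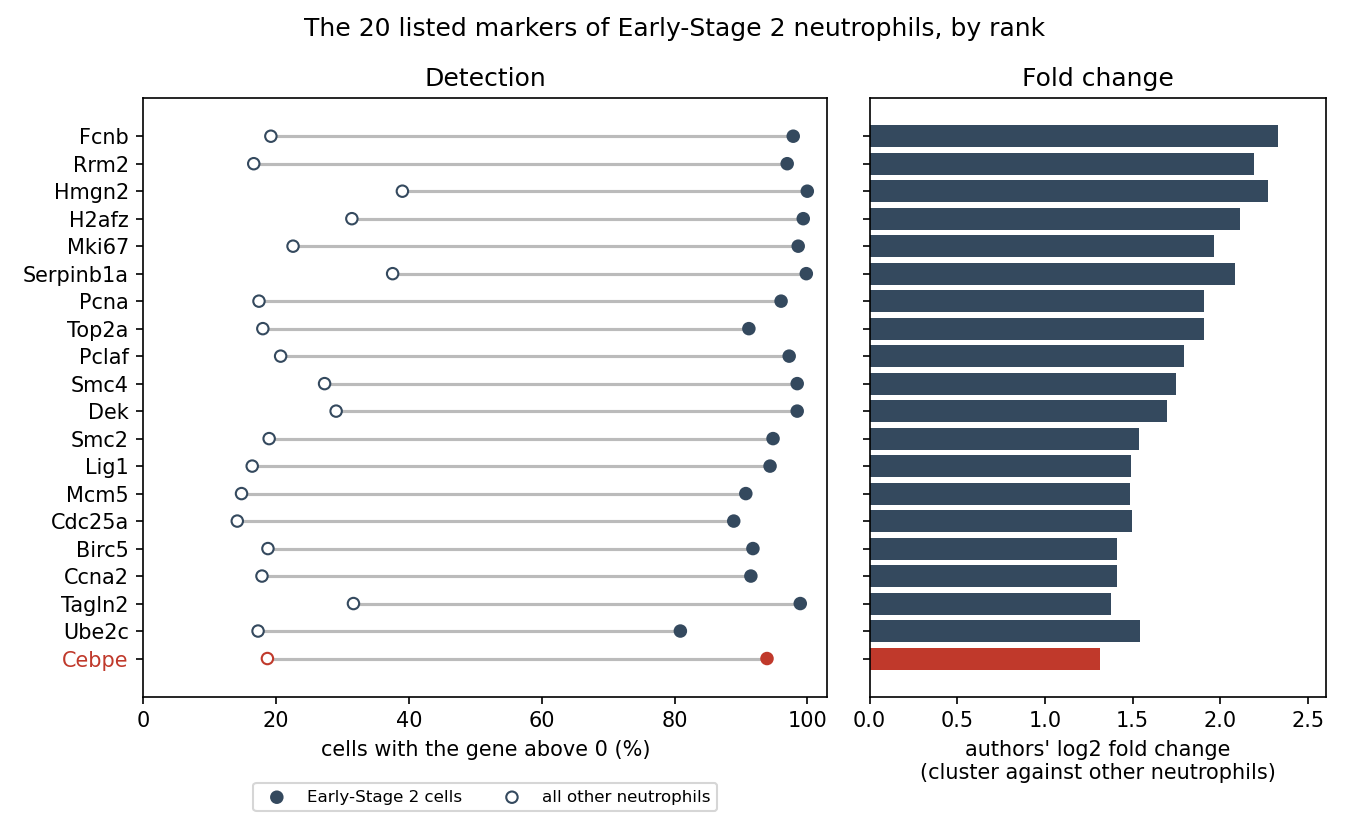
Left, percent of cells with each of the 20 listed markers above 0 in Early-Stage 2 cells (filled) and in all other neutrophils (open), in rank order. Right, the authors' log2 fold change. Cebpe (red) is detected in 93.9% against 18.7% and has the smallest fold change, 1.31.

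The deposited fractions could be turned back into cells, since inside the clusters all 180 markers gave whole numbers of cells within the rounding to 4 decimals. Outside, where the cells are too many for that check, the number of cells is good to within 1 cell. Cebpe was detected in 619 of the 659 Early-Stage 2 cells and in 1917 of the 10263 other neutrophils. Hence 2536 neutrophils, 23.2% of all, had Cebpe above 0, and 24.4% of these were Early-Stage 2 cells. The cells outside the cluster were thus the majority, as for all 20 of its markers, for which the share inside ran from 14.1% (Hmgn2) to 28.8% (Cdc25a). This is usual for the listed markers, since Early-Stage 2 is only 6.03% of neutrophils. In the other clusters it also held for all 20, except in Early-Stage 1 (18) and Hypoxia/Angiogenesis (17). Even if every one of the 791 Early-Stage 1 cells had Cebpe above 0, at least 1126 such cells would lie outside both Early-Stage clusters, 11.9% of the 9472 cells there. The marker table does not say which clusters they were in.

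Detection depends on depth, and depth differed between the clusters. Early-Stage 2 cells had a median of 13658 UMIs and 3350 detected genes, and the other neutrophils had 1825 UMIs and 864 genes. Those others include the Early-Stage 1 cells, which were deeper still (medians of 21152 UMIs in shSCR and 15679 in shZdhhc17). The difference in Cebpe detection therefore moves with a difference in UMIs per cell, and its part in the result was not tested. Free RNA in the suspension also moves detection, and the authors corrected for it before deposit. No file used here gives Cebpe in a cell type that should lack it.

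The marker table cannot place Cebpe between the early clusters. No gene was listed for more than 1 cluster (180 distinct genes among 180 entries). Early-Stage 1, the cluster of Mpo, Elane, Prtn3, Ctsg and Ms4a3, had a score of 2.42 at rank 20. This is above the 1.12 of Cebpe in Early-Stage 2, so a higher Cebpe score in Early-Stage 1 than in Early-Stage 2 could have gone unlisted.

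The same limits apply to the 7 factors not listed. Since specificity cannot exceed 1, a gene had to have a log2 fold change above the score at rank 20 to be listed. That score was 2.42 in Early-Stage 1, 1.12 in Early-Stage 2, 0.937 in Hypoxia/Angiogenesis, 0.734 in ECM Remodeling and 0.713 in NETosis 1. It was 0.516 in Inflammation, 0.419 in Migration 2, 0.408 in NETosis 2 and 0.229 in Migration 1. Cebpa, Cebpb, Cebpd, Gfi1, Spi1, Irf8 and Klf4 may have had lower scores than these or may not have been tested by the authors. They may also have been left out by a rule not known here, since no gene was listed for more than 1 cluster. Their absence does not show equal levels across clusters.

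**Figure D3:**
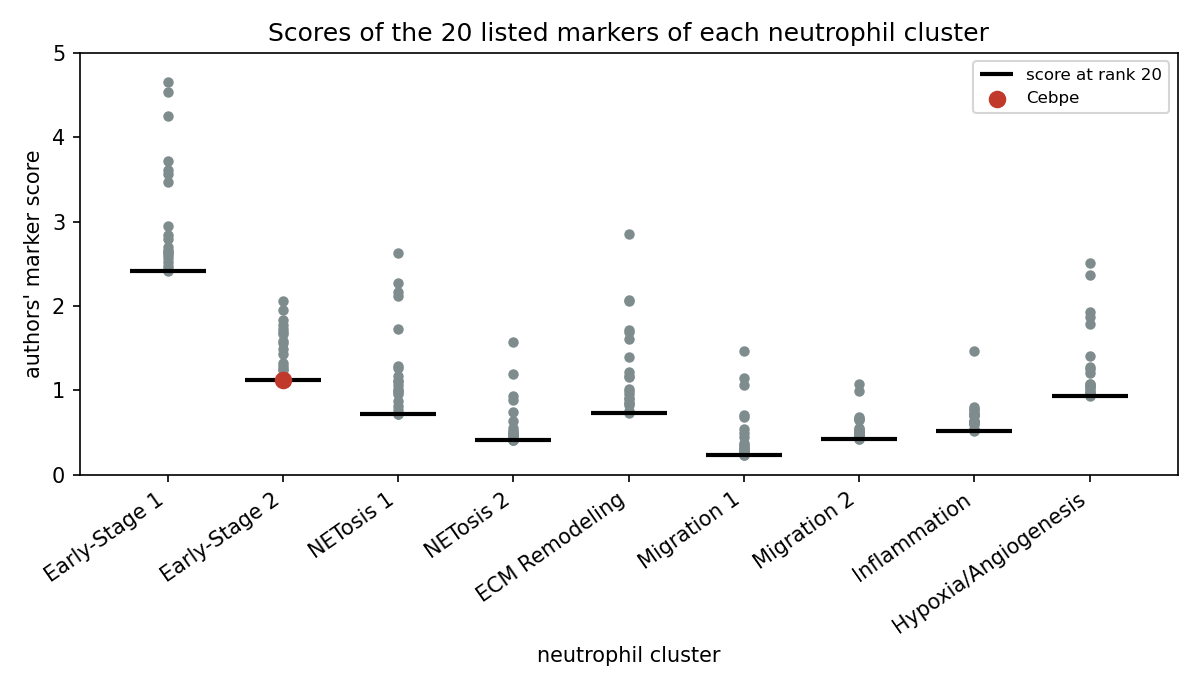
Marker scores of the 20 listed genes (points) of each neutrophil cluster, from the authors' deposited table, with the score at rank 20 as a bar. Cebpe (red) lies at the bar of Early-Stage 2, 1.12, below the bar of Early-Stage 1, 2.42.

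Most granule genes were listed for other clusters than Cebpe was. Neutrophil precursors are known to fill azurophil granules first, and specific and gelatinase granules later. In the authors' deposited table, 5 of 11 genes of the azurophil granule list were markers, counting Ms4a3, which is not known as a granule protein gene. All 5 were in Early-Stage 1, led by Mpo (log2 fold change 4.92). Of the fixed list of specific and gelatinase granule genes, 12 of 17 were markers, counting Adpgk, which is not known as a granule protein gene. One of them, Fcnb, shared Early-Stage 2 with Cebpe. NETosis 1 held 7, namely Ltf, the lactoferrin gene (3.00), Lyz2 (2.74), Camp, the cathelicidin gene (2.58), Ngp (2.57), Cybb (2.15), Lcn2 (1.75) and Adpgk (1.61). Chil3 and Cd177 were in NETosis 2, Mmp9 in ECM Remodeling and Mmp8 in Migration 1. As listed, Cebpe was a marker of Early-Stage 2, and NETosis 1 had the most markers from the specific granule list. Each gene was listed for 1 cluster only, so this does not show that Cebpe and these genes are in separate cells.

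Detection of these granule genes was also spread beyond their clusters. Mpo was detected in 16.3% of all neutrophils, with 44.2% of its positive cells in Early-Stage 1. Ltf was detected in 29.7%, with 29.8% of its positive cells in NETosis 1, and Lcn2 in 75.2%, with 11.9% in NETosis 1. Cebpe, at 24.4% in its cluster, lay below Mpo and Ltf, above Lcn2 and near Fcnb of the same cluster (24.7%). These shares also depend on cluster size, which was 6.03% of neutrophils for Early-Stage 2, 7.24% for Early-Stage 1 and 8.96% for NETosis 1. The same limit of depth applies.

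Of the other lists, Csf3r, the receptor gene for the growth factor of granulocytes, was a marker of Inflammation (log2 fold change 1.05), the only one of 10 growth factor receptors listed. Of the 65 other myeloid transcription factors, 2 were markers, Fos (1.28) and Junb (1.39), both of Inflammation, the cluster with the fewest UMIs per cell. Of the monocyte and macrophage genes only Lyz2, which neutrophils also make, was a marker. No dendritic cell gene, lymphoid, erythroid or liver and epithelial transcription factor was. Cebpe was therefore the only gene of the 8 and of the 4 other transcription factor lists that was a marker of a cluster other than Inflammation. Among defining markers of neutrophils, 6 of 7 were in the marker table (S100a8, Ly6g, Csf3r, Cxcr2, Mmp9 and Retnlg). All 7 genes taken as markers of MDSCs were listed for neutrophils, and 3 were among the most variable genes there. The marker table held 4 of these 7, namely S100a8 (ECM Remodeling), Wfdc17 (Migration 1), and Il1b and Cd84 (both Inflammation). S100a8 is in both lists. The gene table of neutrophils also listed markers of other cell types, namely 3 of 3 for T cells, 3 of 3 for B cells, 2 of 2 for NK cells, 3 of 3 for cancer epithelium, 5 of 5 for monocytes, 5 of 6 for dendritic cells, 2 of 5 for macrophages, 2 of 2 for erythroid cells, 1 of 2 for endothelium and 1 of 2 for fibroblasts. It listed 0 of 4 for Kupffer cells and 0 of 3 for hepatocytes. For scale, 21544 of the 28523 genes listed for all cells were listed for neutrophils, so most genes of any list would be present. Being listed gives no level. Both erythroid markers, the endothelial one and the monocyte marker F13a1 were also among the most variable genes of neutrophils. The part of such transcripts in the results was not tested.

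The Cebpe values pool both libraries. The Early-Stage 2 cluster drew 60.4% of its cells from shSCR, as did neutrophils as a whole (60.4%). It held 398 of 6594 neutrophils in shSCR, 6.04% (95% exact interval 5.47 to 6.64), and 261 of 4328 in shZdhhc17, 6.03% (5.34 to 6.78). The ratio of shZdhhc17 to shSCR was 0.999 (0.859 to 1.16), so the cluster that lists Cebpe as a marker took the same share of neutrophils within counting error. As a share of all cells the ratio was 0.697 (0.597 to 0.814), with neutrophils at 20.1% of shZdhhc17 cells and 28.8% of shSCR cells. Among neutrophils with at least 1093 UMIs, the lower quartile, it was 1.30 (1.12 to 1.51). The intervals cover counting error only, and Cebpe itself was not compared between the libraries.

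In the cells where Irf8, Klf4 and Spi1 are best known, only numbers and depth could be set out. MDSCs numbered 708 in shSCR and 452 in shZdhhc17, with medians of 15991.5 and 12587 UMIs. These lie near the 15315.5 and 11186 of Early-Stage 2 cells, below the 21152 and 15679 of Early-Stage 1 cells and far above the 2464 and 1418 of neutrophils as a whole. Monocytes, the cells that depend on Klf4, numbered 2222 and 1606, with medians of 5926 and 4371 UMIs. Conventional dendritic cells numbered 301 and 239 (5700 and 4761 UMIs), and plasmacytoid dendritic cells, which keep high Irf8, 54 and 46 (3238.5 and 2764.5 UMIs). The depth was lower in shZdhhc17 in each of these types. A comparison of detection of the 8 genes between libraries would meet this difference in depth.

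**Figure D4:**
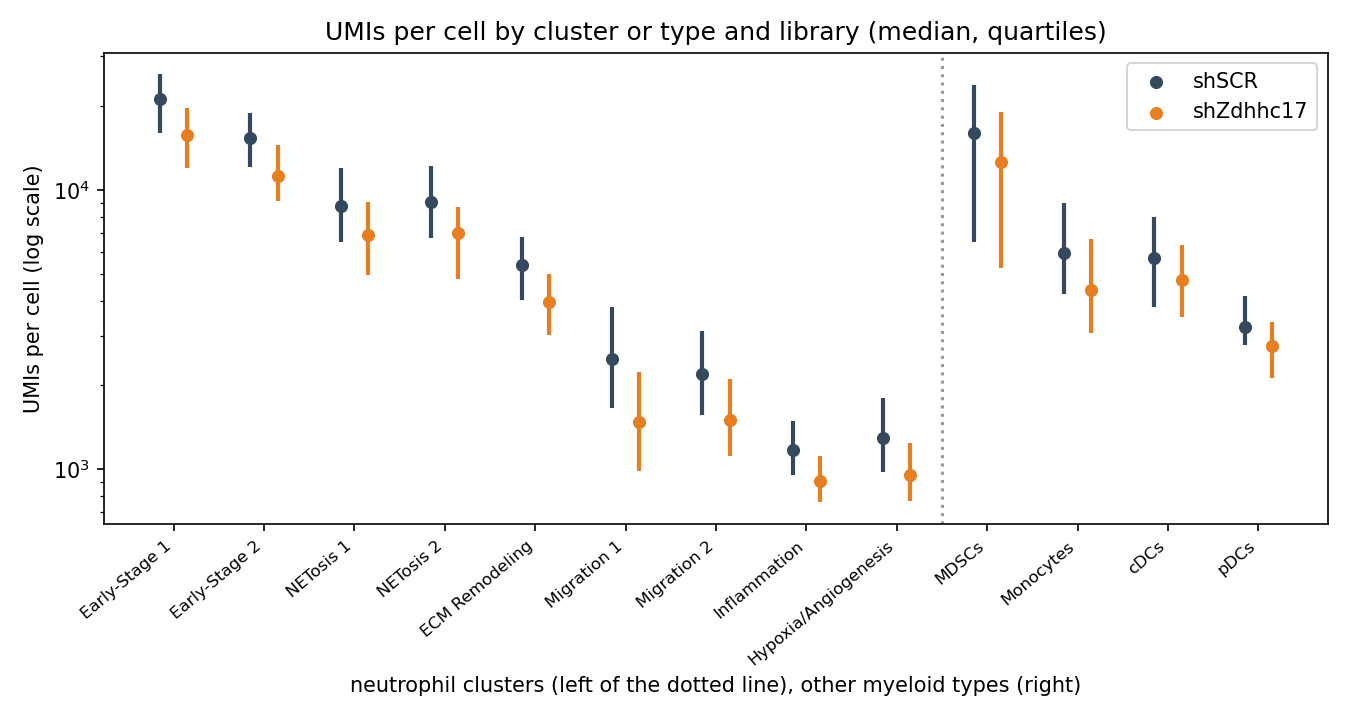
Median UMIs per cell (points, log scale) with quartiles (lines) for the 9 neutrophil clusters and for 4 other myeloid types, in both libraries. Early-Stage 1 has the highest medians, 21152 and 15679. Early-Stage 2, the cluster that lists Cebpe as a marker, and MDSCs have medians of 11186 or more in both libraries, while Inflammation lies at 1175 and 906.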

How the data were processed

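Reads went through the BD Rhapsody pipeline, and the authors corrected counts for ambient RNA, clustered all cells, clustered neutrophils again and named types from markers, per the file headers. Seurat 4.1.0 and the GRCm38 (mm10) build are named in the submitters' processing notes. The tool for ambient correction is not given in the sources used here. Deposited cells had at least 500 UMIs. The deposited cell tables hold whole-number counts per cell (UMIs and genes) and the percent of mitochondrial UMIs. The deposited marker table gives the authors' log2 fold changes (Wilcoxon, pseudocount of 1), the fraction of a cluster's cells with a gene above 0, and the authors' specificity and marker score. The deposited gene tables hold flags only.

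The fraction outside a cluster, which is also deposited, was computed here from the specificity and the inside fraction by the formula in the file headers. Fractions were multiplied by cluster sizes to give cells, and printed as percents. Shares have exact (Clopper-Pearson) 95% intervals and ratios log-normal counting intervals. No test between groups was made, each being 1 library, and the authors' cell labels were kept. A share of 0 allows up to 3 cells, 0.0131% in shSCR and 0.0139% in shZdhhc17. Doublets and unknown cells, as the authors labelled them, stayed in the denominators of the types. The named genes were the 8 members, members of the lists among the markers, and other listed transcription factors flagged as variable. Granule, monocyte and dendritic cell genes flagged as variable, and relatives of the 8 genes that were not flagged, were named after their flags were seen, as were Hmgn2 and Cdc25a after their values. Genes and lists were chosen with earlier results of these data known. The motif search was tested on simulated data. Python 3.11.15, pandas 2.3.3 and SciPy 1.17.1 were used. Protein sequences were not analysed here.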

Additional observations from a re-analysis of the deposited data

How the results depend on the processing

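No member was among the most variable genes with protein-coding genes only or with genes in both tables only as background. All members are protein-coding and in both tables, so these counts of 0 could not change and test nothing. Cebpe, with a listed log2 fold change of 1.31, stayed a marker at a limit of 1 or more, as did all listed granule genes. That outcome follows from the listed fold changes and is no separate check. The ratio of shZdhhc17 to shSCR for Early-Stage 2 (0.999) went to 0.697 as a share of all cells, 1.30 in neutrophils from the lower quartile of UMIs upward and 1.22 without the top 5% by UMIs. That limit of 1093 UMIs falls between 906 and 1175, the medians of Inflammation cells in the libraries. No value exists at mitochondrial percent at or below the median, where 0 Early-Stage 2 cells were left. The ratio of MDSCs (0.678) went to 0.783 among cells other than cancer cells and 0.765 without the top 5% by UMIs, and that of monocytes (0.768) to 0.886 among cells other than cancer cells. At low mitochondrial percent, the ratio of monocytes went to the other side of 1, at 1.06, with a counting interval that spans 1 (0.978 to 1.16). There it was 1.00 for conventional dendritic cells (0.844 over all cells). For plasmacytoid dendritic cells it was 1.71 (counting interval 0.65 to 4.48), against 0.905 over all cells. The cause was not tested. The matches of TTGCNNAA (Gfi1) and AATCNNNGC (Irf8) were at 0 within 100 bases before to 50 after the start, a shorter window. Leaving out cell identifiers found in both libraries was chosen after seeing the data and gave 0.999 for Early-Stage 2. In all, 38 of 49 alternatives stayed within counting error or within 1.5 times a count, 10 moved and 1 went to the other side of 1. Many of the 38 were counts that could not change, such as a count of 0 searched again in a smaller set. Most of those that moved were share ratios, so 38 of 49 does not measure how stable the ratios are. The comparison of proteins was not run. No paired analysis was possible because each group is 1 pooled library. Depth limits the reading of detection: cells with few UMIs can hold a transcript and show none.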
